A study of Mus musculus with 25 samples.

Results

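The levels of 10 genes that set thymic iNKT cells without both Mst kinases apart from cells without Mst1 alone are described here: Gcsam, Tnni1, Sulf2, Jup, H2-Ob, Nebl, Samd3, Arsb, Bmp7 and Kcnn2. They are 10 of the 22206 transcript clusters on the array, of which 19572 carry 1 gene symbol, and each is read by the only cluster with its symbol. The genes were picked because they differed in the dKOMst S1_S2 arrays, so their values in those arrays are given as a description, with no p-value for any of them. Comparisons that use no S1_S2 array, in S3 cells, are the ones that the choice did not draw on.

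All mice were C57BL/6. The array set held 2 dKOMst S1_S2, 4 Mst1KO S1_S2 and 6 WT S1_S2 samples, and 1 dKOMst S3, 5 Mst1KO S3 and 7 WT S3 samples, where dKOMst is loss of both Mst1 and Mst2 and Mst1KO is loss of Mst1. The labels give no allele, Cre driver, age or pooling of animals for these groups. Invariant natural killer T (iNKT) cells were sorted from enriched thymocytes as TCRb-positive cells that bound the PBS57-loaded CD1d tetramer and lacked CD24. S1_S2 samples held the NK1.1-negative cells of stages 1 and 2 together, with CD44 negative at stage 1 and positive at stage 2, and S3 samples held the CD44-positive, NK1.1-positive cells. RNA was amplified, labelled with biotin and hybridised to Clariom S arrays, on which 1 probe set reads 1 transcript cluster.

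Mst1 and Mst2, encoded by Stk4 and Stk3, are the upstream kinases of the Hippo pathway. With the scaffold Sav1 they activate the Mob1 and Lats kinase module, which keeps the coactivators Yap and Taz away from TEAD transcription factors, and in lymphocytes Mst1 also acts through Rassf5 and Dock8 on adhesion and migration. iNKT cells are T cells with a near-invariant receptor for lipids on CD1d. They mature in the thymus under the transcription factor PLZF (Zbtb16), and their NK1.1-positive stage is driven by T-bet (Tbx21).

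Array medians lay between 7.28 and 7.39 on the deposited log2 scale and correlations between replicates between 0.981 and 0.993. The numbers in the sample titles fall into a first run of 16 arrays, with all Mst1KO samples, and a second run of 9 arrays, with all dKOMst samples. WT samples lay in both, with 3 and 3 S1_S2 arrays and 4 and 3 S3 arrays, so each mutant was compared with the WT arrays of its own run. The labels do not call these runs batches. The 4 arrays of Mst1KO replicates 3 and 4 at both stages had a mean signal of Y-linked genes of 4.74 to 4.84, against 7.05 to 8.02 on the other 21 arrays. The Stk4 cluster averaged 9.31 ± 0.07 in Mst1KO S1_S2 samples (SD, n = 4) and 10.31 ± 0.11 in first-run WT S1_S2 samples (n = 3, limma adjusted p = 0.0068). At S3 it averaged 9.74 ± 0.28 in Mst1KO (n = 5) and 10.02 ± 0.36 in WT samples (n = 4, limma adjusted p = 0.363). In dKOMst samples Stk4 read 10.27 and 9.63 at S1_S2, against 10.54, 10.55 and 10.74 in second-run WT S1_S2 samples (limma adjusted p = 0.109), and 10.08 at S3. The labels do not place these probes inside or outside the deletion, and no cluster was named Stk3 in the probe table used here. Zbtb16 read 11.36 or more in every sample and Cd24a lay below the negative controls in every sample.

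Of the 10 genes, 6 were higher in the dKOMst S1_S2 samples than in any second-run WT S1_S2 sample and 4 were lower. Gcsam, Tnni1, Jup, H2-Ob, Nebl and Sulf2 were the higher ones, and Samd3, Arsb, Bmp7 and Kcnn2 the lower ones. The differences spanned 1.28 to 2.25 among the higher genes and -2.29 to -1.14 among Samd3, Arsb and Bmp7, on the log2 scale, and Kcnn2 has only a bound. For all 10 genes the dKOMst range cleared that of the second-run WT arrays, as it did for 28.8% of all clusters. For 9 of the 10, Sulf2 excepted, it cleared all 10 Mst1KO and WT S1_S2 arrays of both runs, as it did for 9.9% of all clusters. In the fit across all clusters 9 of the 10, again all but Sulf2, passed an adjusted p of 0.05 (limma), against 0.671% of all clusters, and without dKOMst replicate 1 it was 3 of the 10, with 14 clusters in all in place of 149. Clusters called numbered 90 without dKOMst replicate 2, and 73, 86 and 84 without WT replicates 4, 5 and 6. The genes were chosen on these arrays, so these counts are no test of them.

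The upstream sequence of the genes, all but Bmp7 and Kcnn2, shows what lies before their annotated starts. Windows of 250 bases before a RefSeq start (GRCm38.p6) were used for 8 of the 10 genes, 13 windows in all, and were searched on both strands for the TEAD core CATTCC (reverse GGAATG) and the RUNX core TGTGGT (reverse ACCACA). RUNX factors are required for T cell development. The TEAD core occurred in 1 of the 13 windows, in Nebl, and in 12.6% of 32851 windows of all genes. The RUNX core occurred in 3 of the 13 windows, 1 of Nebl and 2 overlapping ones of Tnni1, and in 14% of all windows. Matches are in capitals in the sequences of the 3 genes with the highest differences, 1 window each.
Nebl, chr2:17670166-17670415, minus strand, with the TEAD core 230 bases before the start: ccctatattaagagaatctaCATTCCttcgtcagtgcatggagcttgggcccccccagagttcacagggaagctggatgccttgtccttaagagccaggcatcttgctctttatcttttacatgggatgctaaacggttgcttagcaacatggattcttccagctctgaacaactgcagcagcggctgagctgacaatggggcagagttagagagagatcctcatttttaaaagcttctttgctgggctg
Tnni1, chr1:135799171-135799420, plus strand, with the RUNX core 137 bases before the start: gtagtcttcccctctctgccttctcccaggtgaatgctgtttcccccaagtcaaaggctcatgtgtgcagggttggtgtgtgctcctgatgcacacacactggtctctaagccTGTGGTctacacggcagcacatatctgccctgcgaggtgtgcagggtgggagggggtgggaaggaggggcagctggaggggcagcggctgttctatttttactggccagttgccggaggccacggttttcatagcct
Gcsam, chr16:45610190-45610439, plus strand, with neither core: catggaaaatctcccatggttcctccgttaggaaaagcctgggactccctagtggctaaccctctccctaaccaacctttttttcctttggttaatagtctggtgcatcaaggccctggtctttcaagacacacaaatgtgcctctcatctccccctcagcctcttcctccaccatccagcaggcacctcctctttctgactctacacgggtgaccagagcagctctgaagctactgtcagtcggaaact
These letters describe the windows only. Genes with several starts have several windows, and the array does not say which start was used.

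Gcsam encodes a signalling adaptor of germinal centre B cells that restrains their motility. It read 8.52 and 8.90 in the dKOMst S1_S2 samples, 6.80, 6.84, 6.91 and 6.53 in the Mst1KO S1_S2 samples, and 6.27, 6.71 and 6.39 in the second-run WT S1_S2 samples. The first-run WT S1_S2 samples read 6.56, 7.10 and 6.87. These Mst1KO and WT values lay near background, and Mst1KO replicate 4 and WT replicate 4 read below their negative controls. Both dKOMst values stood more than a log2 unit above every other S1_S2 array, and the Mst1KO and WT arrays overlapped. The difference of dKOMst from WT, 2.25 ± 0.19 (SE), was the highest of all 22206 clusters, and that from Mst1KO was 2.32 ± 0.24. Here and below, differences from Mst1KO are the second-run difference from WT less the first-run difference from WT. They therefore need not match the gaps between the listed values. Compared directly, with no run term, the dKOMst and Mst1KO arrays differed by 1.94 for Gcsam. Mst1KO S1_S2 samples differed from first-run WT by -0.07.

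Tnni1 encodes slow skeletal muscle troponin I, the inhibitory subunit of the troponin complex. It read 8.63 and 8.75 in the dKOMst S1_S2 samples, 6.85, 7.24, 7.14 and 6.75 in the Mst1KO samples, and 6.53, 6.71 and 6.35 in second-run WT samples. First-run WT S1_S2 samples read 6.94, 7.31 and 6.73, on both sides of the Mst1KO values. The dKOMst arrays again stood apart from all others, and with 0.12 between them they differed little. The difference from WT was 2.16 ± 0.19, second among all clusters, and that from Mst1KO was also 2.16 (± 0.24), but 1.70 with no run term. Its profile was the one most like that of Gcsam over the 12 S1_S2 arrays, with Pearson's r of 0.982 after each value was set against the WT mean of its run, followed by Col6a4 at 0.971 and Celsr1 at 0.961. All of these were read on the same 12 arrays, among which the 2 dKOMst arrays stood apart for Gcsam and Tnni1. Both genes were picked on those 2 arrays, so a high r between them follows from the choice.

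Nebl encodes nebulette, an actin-binding protein known from cardiac Z-discs. It read 9.78 and 9.34 in the dKOMst S1_S2 samples, 8.70, 8.49, 8.79 and 8.96 in the Mst1KO samples, and 7.06, 8.24 and 7.79 in second-run WT samples. First-run WT S1_S2 samples read 8.58, 7.70 and 8.07. The values lay in the order dKOMst, Mst1KO, WT, but 1 first-run WT array fell among the Mst1KO arrays. The difference of dKOMst from WT was 1.86 ± 0.30, that from Mst1KO 1.24 ± 0.40, and that of Mst1KO from WT 0.62 ± 0.25. With no run term dKOMst differed from Mst1KO by 0.82, so this gap depended on the run.

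Jup encodes plakoglobin, a catenin of desmosomes and adherens junctions. It read 10.24 and 10.05 in the dKOMst S1_S2 samples, 8.67, 9.02, 8.85 and 8.79 in the Mst1KO samples, and 8.70, 8.60 and 8.64 in second-run WT samples. First-run WT S1_S2 samples read 8.62, 9.20 and 8.10. The dKOMst arrays lay above all others, by 1.49 ± 0.23 over WT and 1.31 over Mst1KO, and the Mst1KO values lay within the WT range.

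H2-Ob encodes the beta chain of H2-O, which inhibits peptide loading of MHC class II molecules by H2-DM. It read 9.67 and 9.58 in the dKOMst S1_S2 samples, 7.86, 8.14, 8.41 and 8.54 in the Mst1KO samples, and 8.36, 8.11 and 8.57 in second-run WT samples. First-run WT S1_S2 samples read 7.84, 8.79 and 8.25. The 2 dKOMst arrays were close to each other and above all the rest, by 1.28 ± 0.25 over WT and 1.34 over Mst1KO. H2-Oa, the alpha chain with which it pairs, averaged 9.03 in dKOMst and 9.44 in second-run WT S1_S2 samples and so lay on the other side of WT (-0.41 ± 0.14, limma adjusted p = 0.317).

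Sulf2 encodes an extracellular endosulfatase that removes sulfate from heparan sulfate chains. It read 8.52 and 7.89 in the dKOMst S1_S2 samples, 7.40, 7.31, 6.40 and 6.57 in the Mst1KO samples, 6.85, 6.91 and 6.82 in second-run WT samples and 8.02, 7.47 and 8.24 in first-run WT samples. The WT S1_S2 samples of the 2 runs did not overlap, with a mean 1.05 lower in the second run, and the dKOMst values overlapped those of the first-run WT arrays. Its differences therefore depended on the run used: 1.34 ± 0.30 for dKOMst over second-run WT, but 0.82 over all WT arrays with no run term, and 2.33 ± 0.39 for dKOMst over Mst1KO, but 1.28 with no run term.

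**Figure D1:**
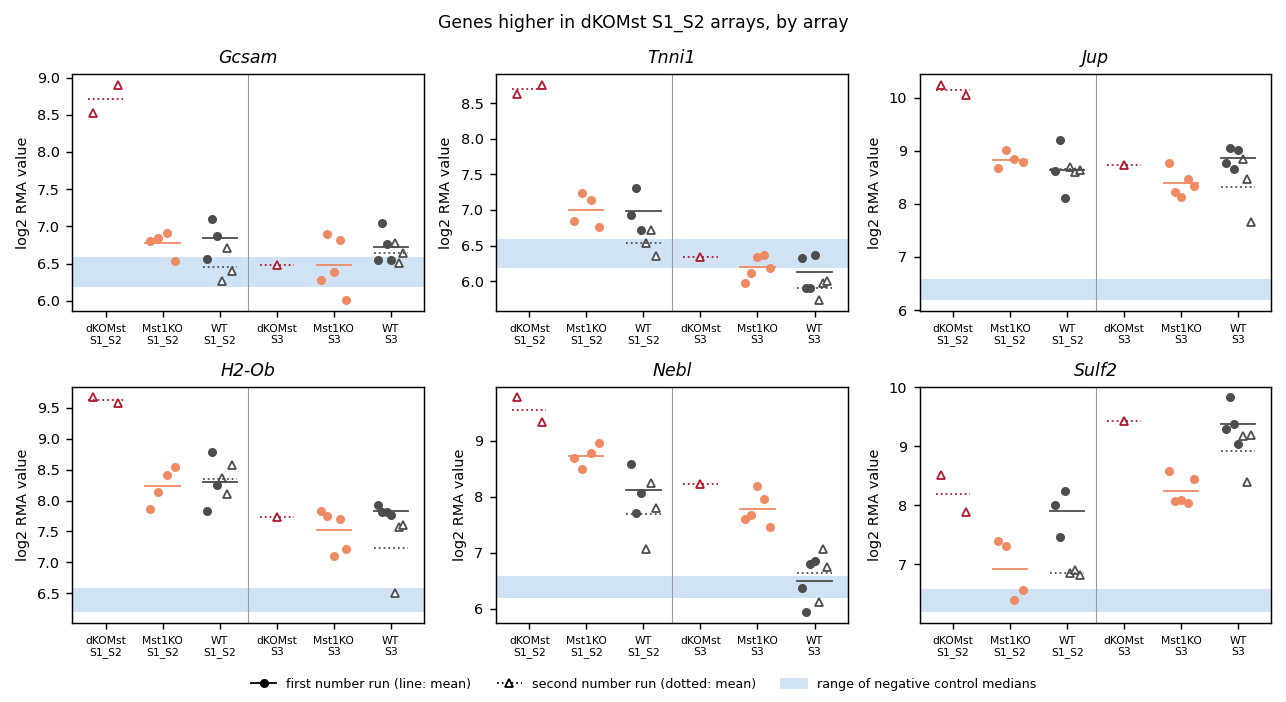
The deposited log2 value of the 6 genes that were higher in dKOMst S1_S2 samples, by array, for dKOMst, Mst1KO and WT at S1_S2 and then at S3. Filled circles are first-run and open triangles second-run arrays, lines are the mean of the run, and the band is the range of the arrays' negative control medians. At S1_S2 both dKOMst points of Gcsam, Tnni1, Jup, H2-Ob and Nebl stand above every other point, and those of Sulf2 overlap the first-run WT points.

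Samd3, a protein with a sterile alpha motif domain, had the lowest difference among the genes measured above background on both sides. It read 6.44 and 7.38 in the dKOMst S1_S2 samples, the first of them below its array's negative controls, against 8.75, 8.93, 8.50 and 8.28 in the Mst1KO samples. Second-run WT S1_S2 samples read 9.45, 8.80 and 9.36, and first-run ones 8.86, 8.93 and 8.63. The dKOMst arrays lay below all others but differed by 0.94 between themselves. The difference from WT was -2.29 ± 0.27 and that from Mst1KO -2.10 ± 0.35, but -1.71 with no run term.

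Arsb encodes arylsulfatase B, a lysosomal enzyme that removes sulfate from dermatan and chondroitin sulfate. It read 8.96 and 9.45 in the dKOMst S1_S2 samples, 10.37, 10.59, 10.54 and 10.15 in the Mst1KO samples, and 10.47, 10.66 and 10.70 in second-run WT samples. First-run WT S1_S2 samples read 10.46, 10.38 and 10.65, overlapping the Mst1KO values. The dKOMst arrays stood below all others, with a difference of -1.41 ± 0.17 from WT and -1.32 ± 0.22 from Mst1KO (-1.21 with no run term).

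Bmp7 encodes a secreted ligand of the TGF-beta family. It read 7.34 and 7.82 in the dKOMst S1_S2 samples, 8.07, 8.41, 8.42 and 8.57 in the Mst1KO samples, and 9.18, 8.39 and 8.58 in second-run WT samples. First-run WT S1_S2 samples read 8.06, 8.41 and 8.35. The highest dKOMst value was 0.24 under the lowest of the other arrays, the narrowest gap of the 9 genes that cleared them. The difference from WT was -1.14 ± 0.23 and that from Mst1KO -1.23 ± 0.29, but -0.79 with no run term.

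Kcnn2 encodes a small-conductance calcium-activated potassium channel. It read 4.81 and 6.11 in the dKOMst S1_S2 samples, both below the negative controls, and 6.82, 7.03, 7.95 and 7.51 in the Mst1KO samples. Second-run WT S1_S2 samples read 8.28, 8.55 and 7.64, and first-run ones 8.78, 8.96 and 8.16. The dKOMst arrays lay below all others, and the Mst1KO arrays lay below all first-run WT arrays but overlapped 1 second-run WT array. Because the dKOMst arrays gave no reading above background, the difference is given as a bound, with WT at least 3.51-fold higher than dKOMst of the same run. The profiles most like that of Kcnn2 over the 12 S1_S2 arrays, in the same measure as above, were those of Snf8 (r = 0.953), Ybx3 (r = 0.951) and Tbc1d4 (r = 0.948). These values use the 2 dKOMst arrays, on which the gene was chosen and where Kcnn2 had no measured level, so the ranking is loose.

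**Figure D2:**
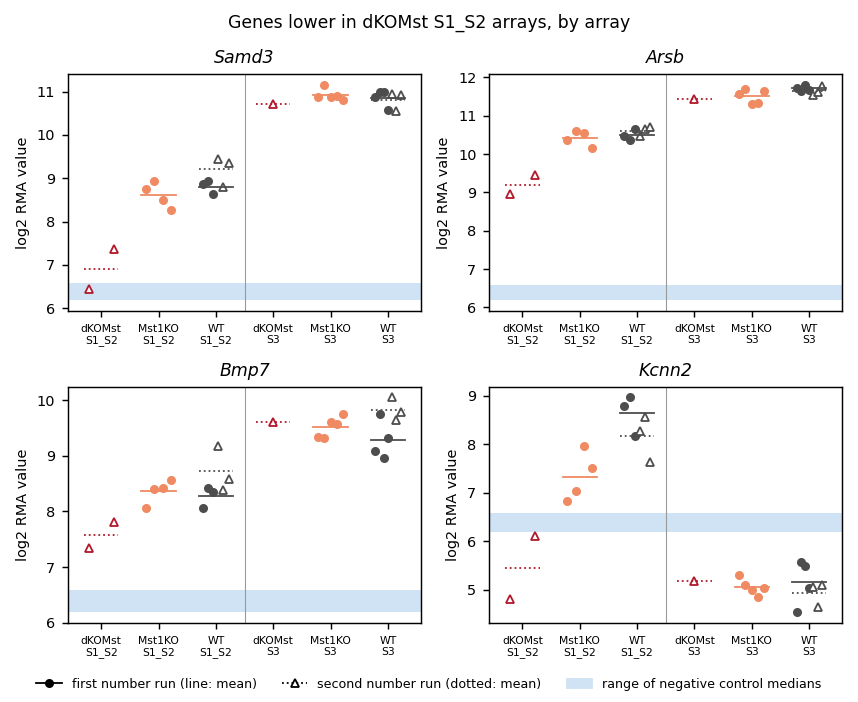
The deposited log2 value of the 4 genes that were lower in dKOMst S1_S2 samples, by array, for dKOMst, Mst1KO and WT at S1_S2 and then at S3, with symbols, lines and band as in the plot of the 6 higher genes. At S1_S2 both dKOMst points lie below all others for each gene, and for Kcnn2 they lie under the negative control band, as do all its S3 points.

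The gene for NK1.1 itself, Klrb1c, was lower in the same dKOMst arrays. It read 8.27 and 8.38 in the dKOMst S1_S2 samples, 8.79 to 8.99 in the Mst1KO samples, 9.40 to 10.15 in second-run WT samples and 8.49 to 9.52 in first-run WT samples. Its difference of dKOMst from WT was -1.44 ± 0.26 (limma adjusted p = 0.0245). Tbx21 averaged 8.33 in dKOMst and 9.09 in second-run WT S1_S2 samples (limma adjusted p = 0.346), while Cd44 averaged 9.54 in dKOMst and 9.48 in WT, and Zbtb16 12.54 in dKOMst and 12.49 in WT. Klrb1c was the 1 of the 10 measured identity and sort markers called in this comparison, and 0 of 10 were called in Mst1KO S3 samples (limma), with 2 at an unadjusted p under 0.05. In Mst1KO S1_S2 samples 1 of the 10 was called, Izumo1r, which averaged 12.38 in Mst1KO and 13.01 in first-run WT samples (-0.63 ± 0.09, limma adjusted p = 0.008). NK1.1 was part of the sort, S1_S2 samples pool 2 stages, and the part of the stage mix in the dKOMst values of the 10 genes was not tested. In such bulk samples fewer cells of a type and less RNA per cell cannot be told apart.

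Set against single loss, the same 2 dKOMst arrays lay outside the range of the 4 Mst1KO S1_S2 arrays for all 10 genes, as they did for 30.5% of all clusters. This difference joins arrays of both runs and was computed as the second-run difference from WT less the first-run difference from WT. Gcsam and Tnni1 passed the threshold (limma), 2 of the 10 genes against 0.0315% of all clusters, and without dKOMst replicate 2 the count was 5. As these arrays chose the genes, the count is again no test of them.

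In Mst1KO S1_S2 samples none of the 10 genes passed the threshold against WT (limma), where 0.248% of all clusters did, and 3 of the 10 had an unadjusted p under 0.05. The ranges were apart for 2 of the 10 genes, Sulf2 and Kcnn2, against 8.28% of all clusters. The Mst1KO and WT S1_S2 arrays also served in the choice of the genes, so these counts are no test of them. Mst1KO differed from WT by -0.99 ± 0.25 for Sulf2 and by -1.30 ± 0.34 for Kcnn2. For both genes the Mst1KO arrays split by Y-linked signal: the 2 with it read 7.40 and 7.31 for Sulf2 and 6.82 and 7.03 for Kcnn2, and the 2 without it 6.40 and 6.57 for Sulf2 and 7.95 and 7.51 for Kcnn2. With only the Mst1KO arrays that had the signal, the Kcnn2 difference widened to -1.71 and that of Sulf2 narrowed. The split itself was not tested. Nebl was higher by 0.62, and the other 7 genes differed by less than 0.20 in either direction.

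**Figure D3:**
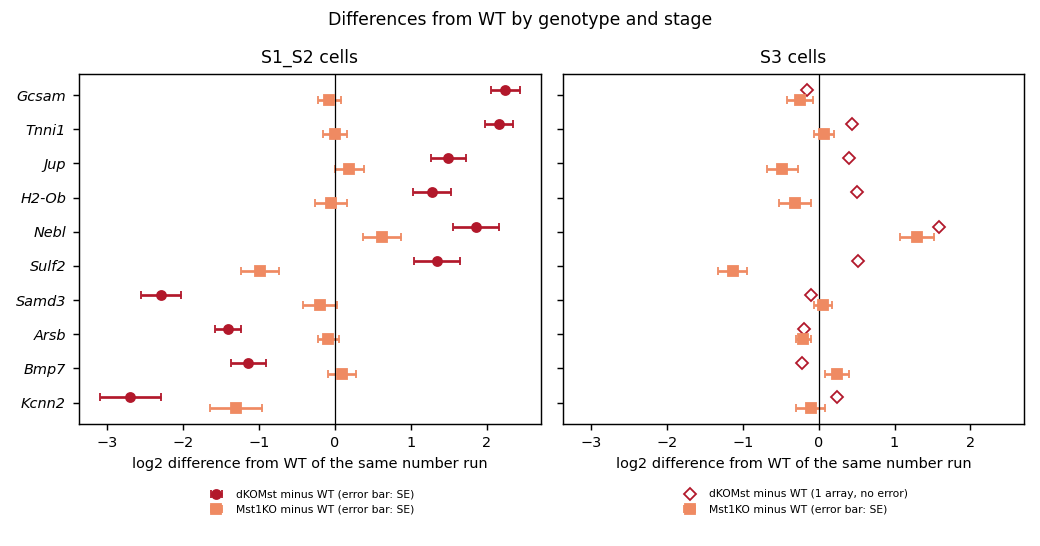
Log2 differences of the 10 genes, with bars of 1 standard error from the fit, for dKOMst minus WT at S1_S2, Mst1KO minus WT at S1_S2, Mst1KO minus WT at S3 and, as a single array with no bar, dKOMst minus WT at S3. At S3 Nebl is higher in both mutants, and Sulf2 is lower in Mst1KO but not in the dKOMst array. Kcnn2 and Tnni1 lie at or below background at S3, so their points there are no measured change, and the Kcnn2 point of dKOMst at S1_S2 rests on arrays below background.

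At S3, which the choice of genes did not use, Nebl and Sulf2 differed between Mst1KO and WT samples, in opposite directions. Nebl was 2.45-fold higher and Sulf2 2.20-fold lower in Mst1KO than in WT. The other 8 genes did not pass the test. These 2 of 10 genes compare with 2.26% of all clusters called in this comparison. Neither passed when only arrays with Y-linked signal were used.

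Nebl read 7.61, 7.68, 8.19, 7.96 and 7.46 in the Mst1KO S3 samples, against 6.36, 5.93, 6.81 and 6.85 in the first-run WT S3 samples. Every Mst1KO array lay above every WT array, including the second-run WT values of 6.13, 7.06 and 6.74. Only 2 of the 4 first-run WT arrays read above their negative controls. The difference was 1.29 ± 0.22 (SE, 95% interval 0.81 to 1.77, limma adjusted p = 0.0127).

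Sulf2 read 8.59, 8.08, 8.10, 8.03 and 8.46 in the Mst1KO S3 samples, against 9.29, 9.83, 9.38 and 9.04 in the first-run WT S3 samples. All Mst1KO arrays lay below all 4 of these, whereas second-run WT S3 samples read 9.19, 8.40 and 9.20, 1 of them within the Mst1KO range. The difference was -1.13 ± 0.20 (95% interval -1.56 to -0.71, limma adjusted p = 0.0127). Nebl and Sulf2 were also the only 2 of the 10 genes whose Mst1KO and first-run WT ranges were apart, as were those of 8.49% of all clusters. Both calls held without any 1 array. With the 4 arrays that lacked Y-linked signal left out, the differences were 1.09 ± 0.24 for Nebl (limma adjusted p = 0.086) and -1.01 ± 0.23 for Sulf2 (limma adjusted p = 0.0882), and neither passed.

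Of the other 8 genes at S3, Jup had the widest difference between Mst1KO and WT. It read 8.77, 8.22, 8.13, 8.47 and 8.33 in the Mst1KO S3 samples and 8.76, 9.04, 8.65 and 9.01 in first-run WT S3 samples, overlapping in 1 Mst1KO array (-0.48 ± 0.20, 95% interval -0.92 to -0.04, limma adjusted p = 0.212). The 3 genes that were lower with double loss and measured at S3 lay close to WT. Samd3 differed by 0.06 (95% interval -0.19 to 0.31), Arsb by -0.20 (-0.42 to 0.02) and Bmp7 by 0.24 (-0.09 to 0.58). Gcsam differed by -0.25 (-0.62 to 0.13) and H2-Ob by -0.31 (-0.78 to 0.15). Kcnn2 lay below the negative controls in all S3 samples, and Tnni1 in all Mst1KO and all but 1 WT S3 samples, so no fold is given for them.

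The single dKOMst S3 array can only be described. Nebl read 8.23 in it, against 6.13, 7.06 and 6.74 in the second-run WT S3 samples. That is a difference of 1.59, or 3.01-fold, and the value lay above all 7 WT S3 arrays and was 15th highest of all clusters in this difference. Nebl was thus higher in both mutants at S3 and in dKOMst at S1_S2. It was the 1 gene of the 10 past 2-fold, as were 0.919% of all clusters. The dKOMst S3 array lay outside all 7 WT arrays for 3 of the 10 genes, Nebl, Gcsam and Arsb, against 24.9% of all clusters.

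The other genes differed by less than 2-fold in that array. Gcsam read 6.49 in the dKOMst S3 sample and 6.78, 6.50 and 6.65 in the WT S3 samples, where the S1_S2 difference had been 2.25. Its dKOMst S3 value lay near that array's negative control median of 6.37. Samd3 read 10.70 in the dKOMst S3 sample and 10.95, 10.55 and 10.92 in the WT S3 samples, within their range. For Sulf2 the values were 9.44 in the dKOMst S3 sample and 9.19, 8.40 and 9.20 in WT, a difference of 0.51, whereas Mst1KO S3 samples lay below WT. The remaining differences were 0.50 for H2-Ob, 0.41 for Jup, -0.20 for Arsb and -0.22 for Bmp7, and Tnni1 and Kcnn2 lay below background in all of these samples. With 1 array these values have no replicate check.

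The 10 genes also differed in how they changed with maturation in WT cells, and here too the WT S1_S2 arrays had served in the choice. Sulf2, Samd3, Arsb and Bmp7 were higher in WT S3 than in WT S1_S2 samples, and Tnni1, Nebl and Kcnn2 were lower, each with ranges apart in both runs. These 7 of 10 genes stand beside 9.18% of all clusters. Samd3 was higher at S3 by 2.05 in the first and 1.61 in the second run, Sulf2 by 1.48 and 2.07, Arsb by 1.21 and 1.03 and Bmp7 by 1.00 and 1.11. Nebl differed by -1.63 in the first and -1.06 in the second run. Kcnn2 read below background in all WT S3 samples, against 7.64 to 8.96 in WT S1_S2 samples. Gcsam, Jup and H2-Ob had ranges that overlapped in at least 1 run.

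Samd3, Arsb and Bmp7, the genes lower in dKOMst S1_S2 samples and still measured at S3, were thus genes that WT cells carried at a higher level at S3. Between stages, S3 less S1_S2, Samd3 differed by 3.80 in dKOMst, 2.31 in Mst1KO and 2.05 and 1.61 in WT samples. For Arsb the stage difference was 2.24 in dKOMst, 1.097 in Mst1KO and 1.21 and 1.03 in WT samples. For Bmp7 it was 2.03 in dKOMst, 1.15 in Mst1KO and 1.00 and 1.11 in WT samples. In each case the wider gap in dKOMst came with a lower S1_S2 value and an S3 value 0.11 to 0.22 below the second-run WT mean. The genes were picked on those S1_S2 arrays, so a wider gap follows from the choice, and the dKOMst S3 side is 1 array. Sulf2, higher in dKOMst S1_S2 samples, was also higher in WT cells at S3. Kcnn2, lower in dKOMst S1_S2 samples, was lower in WT cells at S3. Gcsam and Jup, whose WT ranges overlapped between stages, differed between stages by -2.22 and -1.41 in dKOMst and by -0.29 and -0.44 in Mst1KO.

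Genes that work with the 10 were measured in 8 lists of 96 genes in all: class II presentation, heparan sulfate editing, lysosomal sulfatases, troponin and thin filament, desmosomes and catenins, BMP signalling, calcium-activated potassium channels and lymphocyte motility. In dKOMst S1_S2 samples none of the 96 passed the test against WT (limma), 10 had an unadjusted p under 0.05, and the median difference was 0.00, against 0.01 over all clusters. In Mst1KO S3 samples 1 of the 96 rose and 2 fell, near the 2.26% called of all clusters. In all 24 had an unadjusted p under 0.05, and the median was -0.08 against -0.05 over all clusters. Kcnn4, the intermediate-conductance relative of Kcnn2, averaged 10.39 in Mst1KO and 9.73 in WT S3 samples (0.66 ± 0.15, limma adjusted p = 0.0436). Ids, a lysosomal sulfatase like Arsb, averaged 9.43 in Mst1KO and 9.82 in WT S3 samples (-0.39 ± 0.08, limma adjusted p = 0.0317). Smad1, a transducer of BMP signals, averaged 8.65 in Mst1KO and 9.20 in WT S3 samples (-0.55 ± 0.12, limma adjusted p = 0.0317). Sulf1, the other endosulfatase of this kind, stayed near 5 and below background in these groups.

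Of 16 measured genes of the Hippo list, 1 rose in Mst1KO S3 samples, where 2.26% of all clusters were called. Stk38, an Ndr kinase downstream of Mst1, averaged 11.08 in Mst1KO and 10.54 in WT samples (0.54 ± 0.10, limma adjusted p = 0.0239). None passed in dKOMst S1_S2 samples, where Stk38 averaged 11.54 in dKOMst and 10.94 in WT samples (0.60 ± 0.13, limma adjusted p = 0.0641) and 3 of the 16 had an unadjusted p under 0.05.

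Because Gcsam and H2-Ob are best known from B cells, markers of other cells were read beside the 10 genes. Of the 9 measured B cell markers none passed in dKOMst S1_S2 samples (limma), and 1 had an unadjusted p under 0.05. Their summed level, in log2, was 10.15 to 10.33 in dKOMst and 10.48 to 10.51 in second-run WT S1_S2 samples, with Cd79b and Cr2 at or below the negative controls in dKOMst. Values were added off the log scale, so Blk, by far the highest of the markers, weighs most in this sum. The markers lay on both sides of WT. Blk, a kinase, averaged 8.49 in dKOMst and 9.34 in WT samples (-0.85 ± 0.23, limma adjusted p = 0.148), Cd79a averaged 7.31 in dKOMst and 7.11 in WT samples, and the median difference of the list was 0.05.

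Of the other lists, 4 had summed levels in dKOMst S1_S2 samples above those of second-run WT S1_S2 samples. Myeloid and dendritic cell markers summed to 11.20 to 11.29 in dKOMst and 10.95 to 11.10 in WT samples. First-run WT S1_S2 samples summed to 10.86 to 11.12. Ccr2, by far the highest gene of that list, weighs most in the sum. It averaged 10.56 in dKOMst and 10.27 in second-run WT S1_S2 samples (0.29 ± 0.13, limma adjusted p = 0.465). Double-positive thymocyte markers summed to 10.10 to 10.11 in dKOMst and 9.69 to 9.996 in WT samples. Erythroid markers summed to 9.74 to 9.98 in dKOMst and 9.51 to 9.71 in WT samples. Fibroblast and endothelial markers summed to 10.62 to 10.66 in dKOMst and 10.50 to 10.53 in WT samples. First-run WT S1_S2 samples overlapped dKOMst in these sums. They read 9.85 to 10.14 for thymocyte, 9.73 to 9.97 for erythroid and 10.58 to 10.68 for fibroblast and endothelial markers. Itgam, a myeloid integrin, differed by 0.95 ± 0.21 (limma adjusted p = 0.0713) and Lyz2, the lysozyme of myeloid cells, by 0.63 ± 0.14 (limma adjusted p = 0.0812). Other myeloid markers lay below WT, among them Batf3 at -0.44 ± 0.15 (limma adjusted p = 0.313), and the median difference of the myeloid list was -0.01. Of the 6 measured thymocyte markers 3 had an unadjusted p under 0.05 (limma), with a median difference of 0.17. Dntt, at or below the negative controls in WT, differed by 1.14 ± 0.42 (limma adjusted p = 0.346). Arpp21 differed by 0.76 ± 0.23 (limma adjusted p = 0.214), and Cd8a by -0.47 ± 0.21 (limma adjusted p = 0.48). Flt3, Itgax, Mpeg1 and Siglech of the myeloid list, Rag2 of the thymocyte list, Epb42 of the erythroid list and Col3a1, Cdh5 and Kdr of the fibroblast and endothelial list lay at or below the negative controls in dKOMst. The sums of NK cell markers (11.10 to 11.33 in dKOMst, 11.01 to 11.16 in WT) and of thymic epithelium markers (9.79 to 9.91 in dKOMst, 9.81 to 9.96 in WT) overlapped. Samd9l weighs most in the NK sum and averaged 10.84 in dKOMst and 10.81 in WT samples. Of the 6 NK cell markers 3 had an unadjusted p under 0.05 (limma), and their median difference was 0.26. Eomes, at or below the negative controls in WT, differed by 0.86 ± 0.19 (limma adjusted p = 0.0761), while Klri2 lay below WT. Over all 7 lists 0 of 50 genes passed in dKOMst S1_S2 samples (limma), with 13 at an unadjusted p under 0.05. The part of these cells in the S1_S2 differences of the 10 genes was not tested.

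In Mst1KO S3 samples 2 of the 50 genes rose and 1 fell, all of the NK cell list, where 2.26% of all clusters were called. Klri2 differed by 1.13 ± 0.24 (limma adjusted p = 0.0308), Eomes by 0.64 ± 0.15 (limma adjusted p = 0.047) and Gzma by -2.19 ± 0.23 (limma adjusted p = 0.000658). The summed level of the 6 measured NK cell markers was 12.22 to 12.41 in Mst1KO and 12.31 to 12.58 in first-run WT S3 samples, which overlapped. Double-positive thymocyte markers summed to 10.22 to 10.58 in Mst1KO and 10.07 to 10.19 in first-run WT S3 samples, with ranges apart. None of their 6 measured genes passed (limma), and 3 had an unadjusted p under 0.05. Their part in the Nebl and Sulf2 differences was not tested.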

How the data were processed

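The 25 arrays were used as the log2 values that the authors deposited in the series table, which per the submitters' processing notes came from RMA (Affymetrix Expression Console 1.1). For the genome build behind the annotation, no source used here gives one. Of the deposited items 6640 controls were left out and 22206 clusters were tested, with no other filter. Symbols came from the platform annotation. A value counts as above background when it exceeds its array's median negative control, between 6.19 and 6.59, and a group with no such array has only a bound. Array number limits the precision.

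Separate models per stage (lmFit and eBayes of limma 3.58.1, R 4.3.3) held the 13 S3 or the 12 S1_S2 arrays, with a mean for each genotype and a term for the number run of the sample titles, 501 to 528 and 533 to 543. Calls needed an adjusted p under 0.05 after Benjamini-Hochberg adjustment across the 22206 clusters. The labels do not say that samples came from separate animals, so p-values measure the spread between these samples, which may be technical. The fit was tested on simulated data. All 10 genes, Stk4, the sort markers and, from each list, up to 3 called genes per comparison are named, along with the 3 clusters most like the genes with the largest rise and fall. H2-Oa, Sulf1 and markers of other cells that were not called were named after their values were seen. The 10 genes and all lists were chosen with earlier results of these data known. Alternatives were other fits, filters and thresholds, arrays with Y-linked signal alone and leaving out each array. Promoter windows were those of RefSeq, GRCm38.p6.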

Additional observations from a re-analysis of the deposited data

Results flagged for a closer look

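In 40 checks of single arrays within a group, where chance alone marks about 1 in 20, 3 values stood far from the rest of their group. Jup read 7.66 in WT S3 replicate 7, with the other WT S3 samples from 8.47 to 9.04. H2-Ob read 6.50 in WT S3 replicate 5, with the others from 7.57 to 7.93. Samd3 read 11.15 in Mst1KO S3 replicate 2, with the others from 10.81 to 10.90.

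In 3 cases every mutant sample of a gene lay on one side of the WT mean of its run at S3 and every mutant sample on the other side at S1_S2. Jup in Mst1KO differed from WT by -0.48 at S3 and by 0.19 at S1_S2. Gcsam in dKOMst differed by -0.16 at S3 and by 2.25 at S1_S2. The S3 value, 6.49, lay near its array's negative control median of 6.37, so the S3 side is loosely measured. Kcnn2 in dKOMst gave a reading 0.24 above WT at S3, but all its S3 samples lay below background, so no direction was measured there. The difference between the stages was not tested in any of these. The 2 dKOMst cases rest on 1 S3 and 2 S1_S2 arrays. How many of all clusters show such opposite sides was not counted, so nothing is read from the number of cases.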

How the results depend on the processing

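No paired analysis was possible because the labels give the groups no shared replicate numbers. For the Mst1KO and WT S3 comparison, 2.26% of clusters passed in the reported fit, 1415 clusters with all 25 arrays in 1 fit, 256 with a 1.5-fold minimum and 96 with arrays that had Y-linked signal only, where 0 of the 10 genes passed. Leaving out 1 array gave 181 to 442 clusters, with 2 to 2 of the 10 genes (181 to 284 for Mst1KO S3 replicates 1 to 5, and 329, 323 and 238 for WT S3 replicates 1, 2 and 3). Tnni1 (0.07), Kcnn2 (-0.11) and Samd3 (0.06) changed sign within -0.0050 to 0.152, -0.315 to 0.0333 and -0.0334 to 0.108 when 1 WT or Mst1KO S3 array was left out, and Tnni1 was -0.0357 with Y-linked signal only. For dKOMst and WT at S1_S2, 149 clusters passed, 271 with trend and robust moderation and 94 with Y-linked signal only. Leaving out 1 array gave 14 to 186 clusters and 3 to 9 of the 10 genes, both lowest without dKOMst replicate 1. For dKOMst and Mst1KO, 7 clusters and 2 of the 10 genes passed, with 38 clusters and 8 genes with all 25 arrays, 170 and 7 with no run term, 35 and 5 with trend and robust moderation, and 3 clusters with Y-linked signal only. Leaving out 1 array gave 3 to 45 clusters and 2 to 5 genes, with 3 clusters without dKOMst replicate 1 and 45 clusters and 5 genes without dKOMst replicate 2. For Mst1KO and WT at S1_S2, 55 clusters passed, 116 (and 1 of the 10 genes) with all 25 arrays, 147 with no run term, 102 with trend and robust moderation and 5 with Y-linked signal only. Leaving out 1 array gave 21 to 117 clusters and 0 to 0 genes, the count being 34 with WT replicate 1 left out, 117 with WT replicate 3, and 21, 32 and 25 with Mst1KO replicates 2, 3 and 4. For the dKOMst S3 array 204 clusters passed 2-fold and 958 passed 1.5-fold, and 210 to 238 passed 2-fold without 1 WT array, with 1 to 1 of the 10 genes. Bmp7 there was 0.09 with all 7 WT S3 arrays in place of -0.22. For WT stages 2039 clusters had ranges apart in both runs, 3404 in the first and 5782 in the second alone, where fewer arrays enter. For the rest the cause was not tested. Fits without 1 of the 2 dKOMst arrays assume that the lone array varies like the other groups. Genes below the negative controls, Kcnn2 and Tnni1 at S3 and Kcnn2 in dKOMst at S1_S2, have no measured level there.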
